A study of Homo sapiens with 9 samples.

Results

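The 53 genes described here encode enzymes, kinases and carriers of glycolysis, lactate exchange, pyruvate entry into mitochondria, the citrate cycle and the pentose phosphate pathway. They were chosen by name from the 28216 genes of the deposited count table, independently of any threshold on the values, and all 53 names were found. RNA was sequenced from 2 established prostate cancer lines, PC3 and LNCaP clone FCG, with 3 libraries in each of 3 groups. PC3 cells were untreated and grew in Ham's F12K medium with 10% fetal bovine serum. LNCaP cells were first held for 24 h in RPMI without phenol red and with charcoal-stripped serum, which is depleted of steroid hormones, and then received 10 nM androgen or vehicle (0.01% ethanol) for 48 h. The sample labels name the androgen dihydrotestosterone, and the main text of the study names R1881. Cell line and medium differ together between PC3 and both LNCaP groups and cannot be told apart, and each cell type is represented by a single line. Nothing in the labels states that the 3 libraries of a group came from separate cultures, so p-values measure the spread between these libraries, which may be technical.

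Glycolysis splits glucose into pyruvate, and its pace is set mainly by hexokinase, phosphofructokinase and pyruvate kinase. Pyruvate is either reduced to lactate and exported, or imported into mitochondria by the MPC1 and MPC2 carrier and oxidised in the citrate cycle. The pentose phosphate pathway branches from the first step of glycolysis and supplies ribose and NADPH. Normal prostate epithelium is known for secreting citrate rather than oxidising it, and androgen is a known regulator of metabolism in luminal prostate cells.

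Upstream sequences are shown for 3 genes on which the results turn: MPC2, which had the largest fitted rise with androgen among the 48 genes tested there, SLC16A3, which was higher with androgen and higher again in PC3, and LDHA, which is among the genes that differed between replicates. They are the 250 bases before a RefSeq transcription start on GRCh38.p14, written 5′ to 3′ on the gene's strand. Capitals mark matches to ACGTG on either strand (CACGT when read on the other), the core of the hypoxia response element, or to AGAACA on either strand (TGTTCT), a half-site of the androgen response element. ACGTG overlaps the E-box CACGTG, so a palindrome counts on both strands. For SLC16A3 and LDHA the window with the most matches is shown, and for MPC2, where no listed window held a match, 1 of its windows is shown.
MPC2, chr1:167935997-167936246, minus strand: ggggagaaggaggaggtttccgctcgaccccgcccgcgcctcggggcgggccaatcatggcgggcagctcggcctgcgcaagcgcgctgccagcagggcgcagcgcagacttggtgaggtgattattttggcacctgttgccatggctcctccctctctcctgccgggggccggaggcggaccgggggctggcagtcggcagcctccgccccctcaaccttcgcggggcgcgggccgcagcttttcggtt
SLC16A3, chr17:82228792-82229041, plus strand: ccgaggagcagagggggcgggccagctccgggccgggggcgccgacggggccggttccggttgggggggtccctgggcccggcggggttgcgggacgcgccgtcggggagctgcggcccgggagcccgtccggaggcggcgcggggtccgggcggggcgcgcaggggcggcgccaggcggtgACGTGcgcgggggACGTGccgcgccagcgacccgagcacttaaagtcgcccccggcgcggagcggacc
LDHA, chr11:18394313-18394562, plus strand: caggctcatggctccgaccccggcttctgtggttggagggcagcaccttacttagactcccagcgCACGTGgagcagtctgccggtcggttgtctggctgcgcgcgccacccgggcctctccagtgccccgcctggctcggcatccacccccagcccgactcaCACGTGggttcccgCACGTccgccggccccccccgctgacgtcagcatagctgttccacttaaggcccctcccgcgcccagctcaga

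The SLC16A3 window held 2 matches to ACGTG and the LDHA window held 5, of which 4 lie in a pair of CACGTG palindromes. Neither window held AGAACA. Of the 35116 windows of this length in the RefSeq table, 18.5% held ACGTG and 12.4% held AGAACA. The 50 genes of the 53 with an entry had 87 windows, of which 24 (27.6%) held ACGTG and 6 (6.90%) held AGAACA. These matches describe the letters only, and which start was in use in these cells was not measured.

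The counts on genes summed to 17397706 to 25640325 in a library, so that a count of 0 allows up to 0.117 to 0.172 CPM (read counts per gene divided by library size and put on the usual CPM scale). The 53 genes took 1.35% to 1.66% of the counts. Levels are given as CPM scaled with TMM factors over all 9 libraries. The cell labels were checked on KLK3, the secreted prostate antigen of luminal cells, which lay between 504 and 702 CPM in vehicle-treated and between 3968 and 4484 CPM in androgen-treated LNCaP libraries and at or below 0.79 CPM in PC3. Of 6 luminal genes listed, 5 were called lower in PC3 in either comparison by the rule given below. HOXB13 was not (log2 0.49 against androgen and 0.14 against vehicle). With androgen 4 of the 6 were called higher, while FOLH1 (log2 -0.31) and HOXB13 (-0.37) were lower. VIM, an intermediate filament of mesenchymal cells, lay between 1145 and 1298 CPM in PC3, and all 5 genes of its list were called higher there. With androgen VIM was called higher too (log2 1.86 ± 0.36). In LNCaP cells VIM was low, but replicate 1 had the most of it in both groups, with 12.2 CPM against 5.34 and 7.06 under androgen and 3.93 CPM against 1.26 and 1.63 under vehicle. All 5 genes of an immune list and all 3 of a red blood cell list stayed under the filter. Of 6 fibroblast genes, COL1A1 and COL3A1 passed it, and of 3 endothelial genes VWF. In PC3 against androgen, COL3A1 (log2 5.20) and COL1A1 (1.51) were called higher and VWF (-6.97) lower. VWF was also called lower with androgen (-1.18).

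A gene was tested where more than 3 CPM were reached in at least 3 libraries. It was called where the adjusted p-value of edgeR's quasi-likelihood test was under 0.05 and the fold change was at least 2. Smaller changes that passed the adjusted p-value alone are given as such. HK3 (0 to 1 counts), PKLR (0 to 2 counts) and PFKFB1 (10 to 30 counts per library) were not tested in any comparison, and FBP1 and PDK4 were not tested between the LNCaP groups. HK3, PKLR and PFKFB1 were called in no comparison when the filter was dropped. PDK4, with 0, 0 and 0 counts under vehicle and 3, 3 and 2 under androgen, was called higher with androgen without the filter and in a fit of all 9 libraries, but both groups lie at or under the limit of 3 counts and no fold is given.

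**Figure D1:**
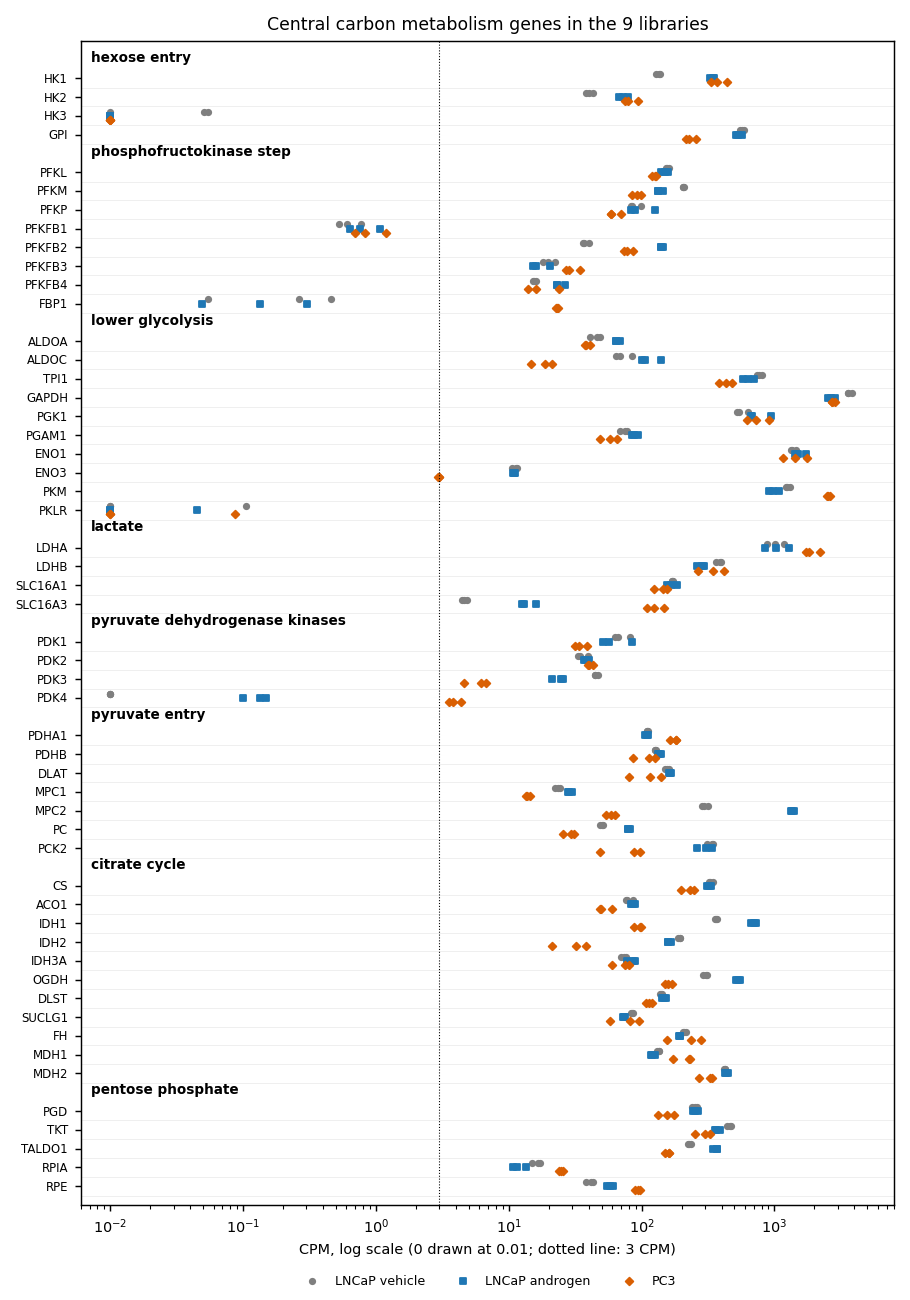
CPM of the 53 genes on a log axis, 1 point per library, with vehicle-treated LNCaP (circles), androgen-treated LNCaP (squares) and PC3 (diamonds) offset vertically. FBP1, PDK4 and SLC16A3 lie far to the right in PC3 and MPC2, IDH1 and IDH2 far to the left.

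Androgen raised 4 of the 48 genes tested by at least 2-fold and lowered 0 by that much, also by the Wald test of DESeq2, although 12 were lower at an unadjusted p under 0.05 in edgeR. The 4 genes were MPC2, a subunit of the mitochondrial pyruvate carrier, PFKFB2, which makes the activator of phosphofructokinase 1, SLC16A3, a lactate exporter also known as MCT4, and HK1, the widely expressed hexokinase. They made up 8.33% of those tested, beside 6.54% of all 11697 genes called higher, 7.49% called lower and 14% called in either direction. A further 15 rose and 12 fell by less than 2-fold, so that 31 of 48 genes (64.6%) passed the adjusted p-value, beside 74.9% of all genes. The replicate numbers pair the LNCaP libraries, and with the replicate block 38 genes passed, the calls at 2-fold being the same. The 7 added were PFKFB3 (log2 -0.21), PDK1 (-0.15), PCK2 (-0.15) and GPI (-0.09), lower with androgen, and PFKP (0.15), ACO1 (0.11) and DLST (0.08), higher, with adjusted p-values of edgeR from 0.00261 to 0.0412. Unless the block is named, statements on passing the test refer to the fit without it. The median log2 fold change was 0.06 over the 48 genes and -0.01 over all genes tested.

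More of the genes were called in the PC3 comparisons than with androgen, as was the case over all genes. The shares called lower lay near those of all genes, and the shares called higher lay below them. Against androgen-treated LNCaP cells, 5 of 50 genes tested were higher (10%, beside 24% of all 12541 genes) and 12 were lower (24%, beside 22.1%), where 46% of all genes were called in either direction. A further 5 rose and 16 fell by less than 2-fold, which brings those past the adjusted p-value to 38 of 50, beside 84% of all genes. Against vehicle-treated cells, 8 of 50 were higher (16%, beside 22.2% of all 12686 genes) and 10 were lower (20%, beside 21%), where 43.2% were called in either direction. Another 7 rose and 16 fell by less than 2-fold, 41 of 50 in all past the adjusted p-value, beside 83.4%. The genes called include FBP1 and PDK4, which passed the filter only through the PC3 libraries, and ENO3, which passed it only through the LNCaP libraries. The median log2 fold change of the genes was -0.40 and -0.29 in these comparisons, beside 0.04 and 0.03 over all genes tested. The median size without sign was 0.70 and 0.68, below the 0.90 and 0.84 of all genes tested. These comparisons share the PC3 libraries, and each shares a LNCaP group with the androgen comparison. In bulk RNA, fewer cells that express a gene and less RNA per cell cannot be told apart.

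**Figure D2:**
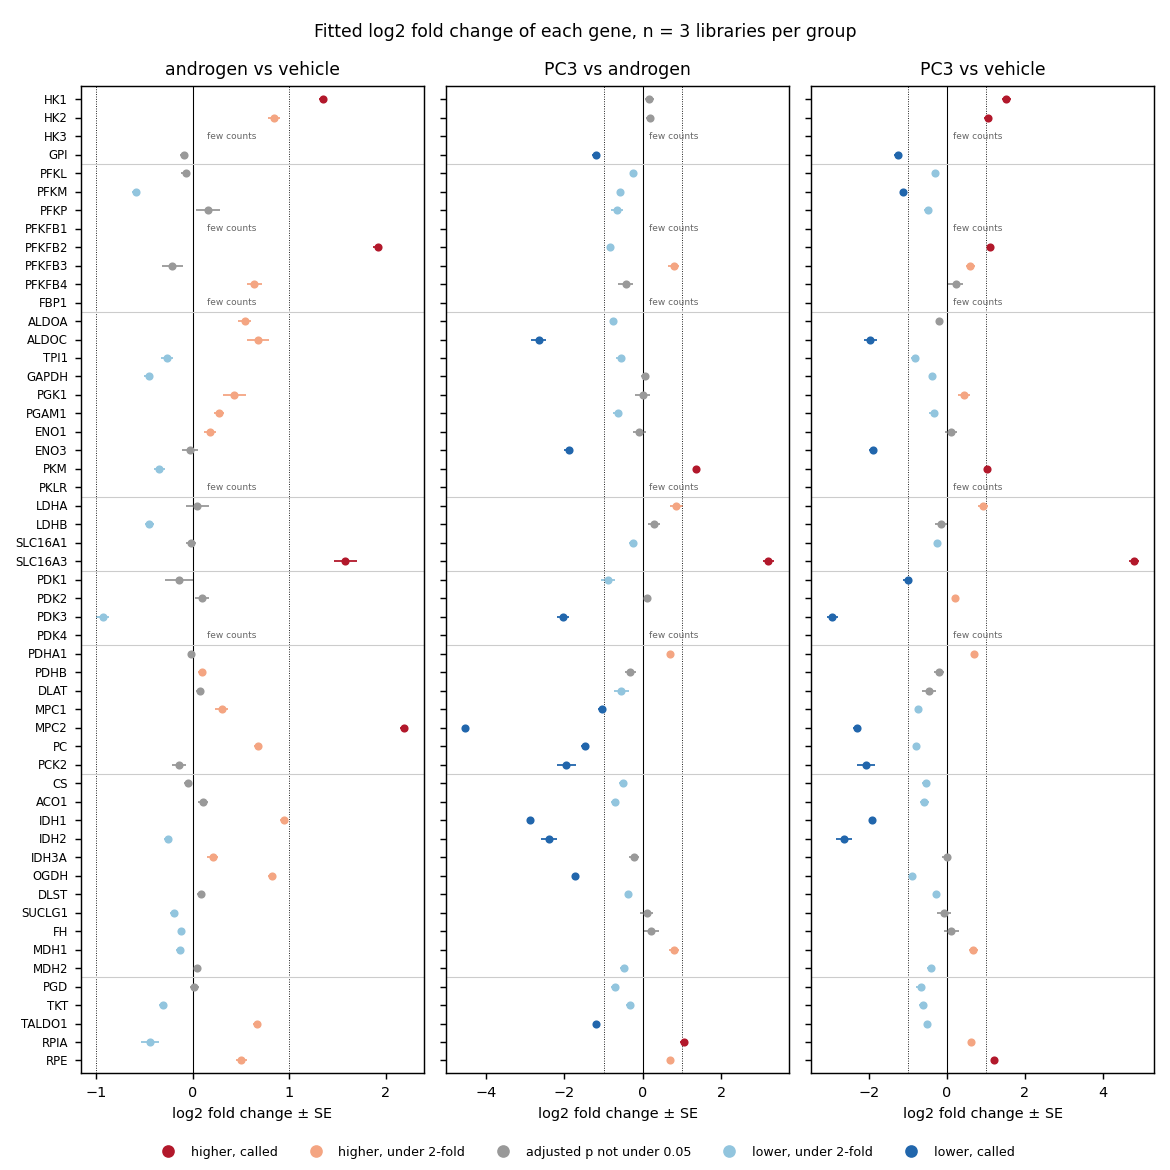
Fitted log2 fold change ± SE of each gene in the 3 comparisons (n = 3 libraries per group), with dotted lines at a 2-fold change and colours for the outcome of the test. In the left panel the 4 called genes are MPC2, PFKFB2, SLC16A3 and HK1, all to the right of the dotted line. In the PC3 panels more genes lie left of 0 than right, and FBP1 and PDK4, with few counts in LNCaP cells, are not drawn.

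Hexokinases trap glucose in the cell as glucose 6-phosphate. HK1 (chromosome 10, 69269984 to 69401884, GRCh38) had 138, 129 and 136 CPM in vehicle-treated, 352, 326 and 347 CPM in androgen-treated and 372, 436 and 336 CPM in PC3 libraries. The androgen-treated and PC3 libraries overlapped, and both lay above all vehicle-treated ones. The log2 fold change of HK1 was 1.35 ± 0.04 (SE, adjusted p = 2.03e-11) with androgen, 1.53 ± 0.11 for PC3 against vehicle and 0.16 ± 0.11 (adjusted p = 0.199) for PC3 against androgen. HK2, the inducible isozyme, followed the same order, with 38.3, 40.3 and 43.3 CPM under vehicle, 68.0, 79.0 and 72 CPM under androgen and 79.3, 74.7 and 93.5 CPM in PC3. It rose by 0.84 ± 0.06 with androgen on the log2 scale, short of 2-fold, and by 1.04 ± 0.09 in PC3 against vehicle, just past it. GPI, which converts glucose 6-phosphate to fructose 6-phosphate, had 554 to 593, 512 to 571 and 216 to 258 CPM in the 3 groups. It was 2.29-fold lower in PC3 than under androgen and 2.40-fold lower than under vehicle, and between the LNCaP groups it passed the test only with the replicate block.

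Phosphofructokinase 1 commits sugar to glycolysis and exists as PFKL, PFKM and PFKP. PFKM had 204, 210 and 203 CPM under vehicle, 134, 145 and 132 CPM under androgen and 91.8, 99.3 and 84.9 CPM in PC3, and no groups overlapped. It fell by 0.58 ± 0.04 on the log2 scale with androgen and by 1.14 ± 0.08 in PC3 against vehicle. PFKL did not pass the test with androgen, PFKP did so only with the replicate block, and both were 1.19- to 1.58-fold lower in PC3 in either comparison.

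The PFKFB enzymes make and remove fructose 2,6-bisphosphate, the activator of phosphofructokinase 1. PFKFB2 (chromosome 1, 207034366 to 207081024, GRCh38) had 36, 36.6 and 40.2 CPM under vehicle, 140, 140 and 144 CPM under androgen and 77.8, 74 and 85.8 CPM in PC3. PC3 thus lay between the LNCaP groups without overlap. It was 3.77-fold higher with androgen (log2 1.91 ± 0.05, adjusted p = 1.79e-12), 2.14-fold higher in PC3 than under vehicle and 1.78-fold lower than under androgen. PFKFB4 rose by 0.64 ± 0.08 on the log2 scale with androgen, from 15.1 to 15.9 CPM to 23 to 26.4 CPM. PFKFB3, by contrast, had 18.2 to 22.1 CPM under vehicle and 15.3 to 20.5 CPM under androgen, was lower in all 3 pairs of the same number and passed the test there only with the replicate block. It was 1.73- and 1.51-fold higher in PC3.

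FBP1 catalyses the reverse step of gluconeogenesis. In PC3 it had 597, 522 and 587 counts (23.5, 22.7 and 23.2 CPM), against 5, 1 and 9 counts under vehicle and 3, 1 and 6 under androgen. The ratio of summed counts, scaled for library size, was 145 over androgen-treated cells (95% exact counting interval 78.4 to 302) and 87.9 over vehicle-treated cells (53.2 to 157). These intervals cover counting error only. The few LNCaP counts were highest in replicate 3 of both groups, an order that is uncertain at such low counts. Their source was not tested.

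In lower glycolysis, where triose phosphates become pyruvate with a yield of ATP, 5 of 9 genes tested rose and 3 fell with androgen, all by less than 2-fold. Of all genes tested there, 74.9% passed the adjusted p-value and 50.5% had a negative log2 fold change. The abundant GAPDH fell by 0.45 ± 0.05 on the log2 scale, from 3598, 3835 and 3564 CPM to 2526, 2854 and 2648 CPM. PKM, the pyruvate kinase gene, fell by 0.35 ± 0.06, from 1234, 1310 and 1229 CPM to 907, 1089 and 971 CPM. TPI1 fell by 0.26 ± 0.06, whereas PGK1 rose by 0.43 ± 0.11, ENO1 by 0.18 ± 0.06, ALDOA by 0.54 ± 0.06 and PGAM1 by 0.27 ± 0.05. Genes of consecutive reactions thus did not all move in the same direction under androgen. Whether they parted more often than other genes was not tested. Much of the transcript sequence of PGAM1 (61.6% of 74-nt stretches), ALDOA (35.0%), LDHB (27%) and TPI1 (10.8%) also lies in other transcripts or elsewhere in the genome, so their levels are uncertain.

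PKM was the 1 gene of this stretch called higher in PC3, with 2472, 2523 and 2614 CPM. That was 2.57-fold above androgen-treated cells (log2 1.36 ± 0.09, adjusted p = 2.53e-06) and 2.05-fold above vehicle-treated cells, and the libraries did not overlap. The counts do not separate the M1 and M2 forms of pyruvate kinase. The isozymes ALDOC and ENO3 were lower. ALDOC, the brain-type aldolase, had 63.9, 84.4 and 68.9 CPM under vehicle, 100, 141 and 106 CPM under androgen and 18.9, 21.3 and 14.6 CPM in PC3. ENO3, the muscle-type enolase, had 10.6 to 11.6, 10.8 to 11.1 and 2.91 to 2.99 CPM. ALDOC was 6.30-fold lower in PC3 than under androgen and 3.89-fold lower than under vehicle, and ENO3 3.70- and 3.73-fold. The main enolase gene ENO1 passed the test in neither PC3 comparison, with 1432, 1774 and 1160 CPM in PC3. Of the remaining genes of this stretch, TPI1 and PGAM1 fell in PC3 in both comparisons by less than 2-fold, ALDOA fell 1.68-fold against androgen and did not pass the test against vehicle, while the fall of GAPDH (1.31-fold) and the rise of PGK1 (1.36-fold) passed the test against vehicle and not against androgen. Per kilobase of annotated exons, GAPDH had the highest mean level of the 53 genes in each group, with 1530 CPM per kb under vehicle, 1117 under androgen and 1149 in PC3.

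Lactate dehydrogenase interconverts pyruvate and lactate, the A subunit favouring lactate formation in textbook accounts. LDHA had 881, 1186 and 1003 CPM under vehicle, 852, 1294 and 1030 CPM under androgen and 1824, 2189 and 1715 CPM in PC3. The LNCaP groups overlapped (log2 fold change 0.05 ± 0.12, adjusted p = 0.721) and PC3 lay above both, 1.81-fold over androgen and 1.90-fold over vehicle. Without PC3 replicate 1 or 3 LDHA passed 2-fold in both comparisons. LDHB fell by 0.45 ± 0.05 on the log2 scale with androgen, from 364 to 393 CPM to 262 to 295 CPM, and did not pass the test in PC3, which spread from 267 to 414 CPM.

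Of the lactate carriers, SLC16A3 (chromosome 17, 82217934 to 82261129, GRCh38) had 4.61, 4.88 and 4.47 CPM under vehicle, 12.6, 16 and 13.1 CPM under androgen and 110, 124 and 147 CPM in PC3. The groups were separated in this order without overlap. The gene was 2.98-fold higher with androgen (log2 1.58 ± 0.12, adjusted p = 7.17e-08), 9.17-fold higher in PC3 than under androgen and 27.7-fold higher than under vehicle. Counting without strand kept a fraction of 0.68 of its reads, since ambiguous reads are then dropped where genes on opposite strands overlap, and its calls held with such counts. SLC16A1, the broadly expressed carrier known as MCT1, had 169 to 173 CPM under vehicle, 155 to 185 CPM under androgen and 125 to 154 CPM in PC3, and fell by 1.19-fold in PC3 in both comparisons.

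**Figure D3:**
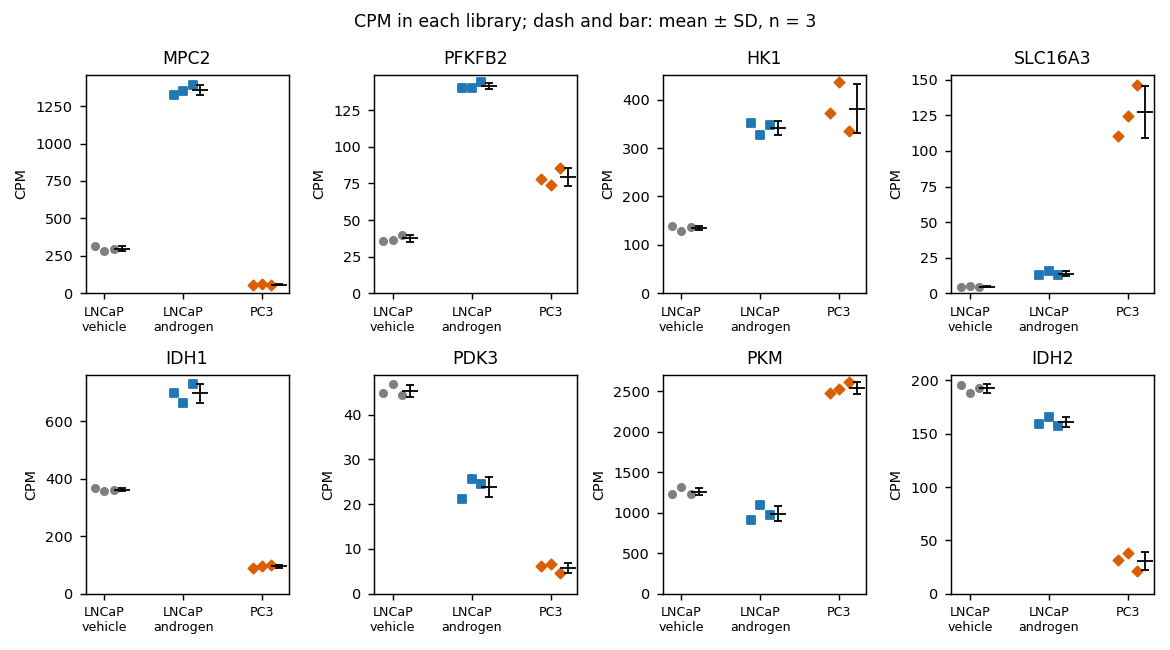
CPM of 8 genes in each library, with the mean ± SD (n = 3) as a dash and bar beside the points and a linear axis from 0. MPC2 reaches 1327 to 1393 CPM under androgen and stays below 64 CPM in PC3, SLC16A3 and PKM are highest in PC3, and PDK3 and IDH2 step down from vehicle to androgen to PC3.

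Pyruvate dehydrogenase kinases switch off the complex that turns pyruvate into acetyl-CoA. PDK3 had 44.8, 46.8 and 44.3 CPM under vehicle, 21.2, 25.7 and 24.6 CPM under androgen and 6.18, 6.70 and 4.58 CPM in PC3, without overlap. It fell by 0.93 ± 0.07 on the log2 scale with androgen (1.90-fold, adjusted p = 4.6e-08) and was 4.08-fold lower in PC3 than under androgen and 7.65-fold lower than under vehicle. PDK1, a known hypoxia target, had 63.4, 82.4 and 67.0 CPM under vehicle and 51.6, 84.8 and 57.1 CPM under androgen, which overlapped, and passed the test between them only with the replicate block. In PC3 it had 31.8 to 38.5 CPM, 1.86-fold below androgen and 2.01-fold below vehicle, so that the second value only just passed the threshold. PDK2, with 33.0 to 39.8, 36.6 to 40.0 and 39.6 to 42.7 CPM, passed the test only in PC3 against vehicle (1.16-fold higher). PDK4 was counted 90, 87 and 110 times in PC3, 3, 3 and 2 times under androgen and 0 times in all vehicle-treated libraries. It was at least 24.6-fold higher in PC3 than under vehicle, taking 3 counts in each vehicle library as the limit, and its ratio to androgen-treated cells was 30.4 (95% exact counting interval 15.2 to 71.1).

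Pyruvate enters the mitochondrion through a complex of MPC1 and MPC2. MPC2 (chromosome 1, 167916675 to 167937072, GRCh38) had 317, 284 and 295 CPM under vehicle, 1327, 1351 and 1393 CPM under androgen and 59.2, 63.6 and 54.3 CPM in PC3. The groups did not overlap. The change with androgen was 4.55-fold (log2 2.19 ± 0.05, adjusted p = 3.31e-13), and PC3 lay 22.9-fold below androgen (log2 -4.52 ± 0.10) and 4.98-fold below vehicle. MPC1 had the same order on a smaller scale, with 22.3 to 24.4, 27.9 to 29.9 and 13.4 to 14.5 CPM. It rose by 0.30 ± 0.06 on the log2 scale with androgen and was 2.07-fold lower in PC3 than under androgen.

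PC carboxylates pyruvate to oxaloacetate and replenishes the citrate cycle. Its 50.5, 48.7 and 51.6 CPM under vehicle became 79.3, 82.5 and 79.1 CPM under androgen, a rise of 0.68 ± 0.04 on the log2 scale, and PC3 had 29.6, 31.1 and 25.6 CPM. PCK2, the mitochondrial enzyme that makes phosphoenolpyruvate from oxaloacetate, had 313 to 347 CPM under vehicle, 263 to 336 CPM under androgen and 87.6, 48.3 and 97.6 CPM in PC3. It was 3.88-fold lower in PC3 than under androgen and 4.22-fold lower than under vehicle, with PC3 replicate 2 the lowest library. Of the pyruvate dehydrogenase subunits, PDHA1, PDHB and DLAT moved less. PDHA1 was 1.61- and 1.62-fold higher in PC3. PDHB passed the test only with androgen (log2 0.10 ± 0.04), and DLAT only in PC3 against androgen (1.46-fold lower). The subunits PDHX and DLD belong to the list of other pathway genes below. PDHX was called lower in PC3, with log2 -1.82 against androgen and -1.28 against vehicle. DLD fell there by less than 2-fold (log2 -0.86 and -0.58). With androgen both rose by less than 2-fold (log2 0.52 for PDHX and 0.26 for DLD).

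In the citrate cycle, the NADP-dependent isocitrate dehydrogenases carried the largest differences. IDH1, the cytosolic enzyme, had 367, 358 and 362 CPM under vehicle, 699, 665 and 729 CPM under androgen and 88.0, 97.8 and 98.2 CPM in PC3. It rose 1.93-fold with androgen (log2 0.95 ± 0.04, adjusted p = 2.3e-10) and was 7.36-fold lower in PC3 than under androgen and 3.77-fold lower than under vehicle. IDH2, its mitochondrial counterpart, went the other way with androgen, from 196, 188 and 193 CPM to 159, 166 and 157 CPM (log2 -0.26 ± 0.04). In PC3 it had 32.0, 38.4 and 21.2 CPM, 5.24-fold below androgen and 6.19-fold below vehicle. OGDH, the first component of the 2-oxoglutarate dehydrogenase complex, had 292, 303 and 311 CPM under vehicle, 535, 512 and 548 CPM under androgen and 158, 170 and 151 CPM in PC3. It rose 1.76-fold with androgen and was 3.32-fold lower in PC3 than under androgen. DLST, the second component of that complex, had 137 to 142 CPM and 143 to 153 CPM in the LNCaP groups and passed the test between them only with the replicate block.

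The rest of the cycle stayed within 2-fold. With androgen, IDH3A rose and SUCLG1, FH and MDH1 fell, by 0.11 to 0.21 on the log2 scale in size. CS and MDH2 did not pass the test, and ACO1 did so only with the replicate block. In PC3, CS, ACO1, DLST and MDH2 fell and MDH1 rose in both comparisons, by 1.20- to 1.73-fold. IDH3A, SUCLG1 and FH passed the test in neither. FH had 236, 280 and 155 CPM and SUCLG1 82.3, 96.1 and 57.5 CPM in PC3, a spread wider than the whole difference between the LNCaP groups.

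Of the pentose phosphate genes, TALDO1 (transaldolase) and TKT (transketolase) share the same non-oxidative branch and moved oppositely with androgen. TALDO1 rose by 0.67 ± 0.04 on the log2 scale, from 234, 222 and 229 CPM to 371, 345 and 370 CPM, and TKT fell by 0.31 ± 0.04, from 464, 436 and 470 CPM to 356, 364 and 387 CPM. The isomerase RPIA and the epimerase RPE, which act on the same ribulose 5-phosphate, also parted: RPIA fell by 0.44 ± 0.10 and RPE rose by 0.51 ± 0.06. Whether such pairs parted more often than other genes was not tested. In PC3 RPIA and RPE were both higher than in LNCaP cells. RPE had 38.4 to 42.8, 55.1 to 60.5 and 89.0 to 96.7 CPM, 2.31-fold higher in PC3 than under vehicle, and RPIA 14.9 to 17.1, 10.8 to 13.4 and 23.7 to 25.7 CPM, 2.08-fold higher than under androgen. TALDO1 was 2.30-fold lower in PC3 than under androgen, with 149 to 162 CPM. PGD, the second oxidative dehydrogenase of the pathway, did not pass the test with androgen (238 to 262 against 246 to 265 CPM) and was 1.63- and 1.59-fold lower in PC3.

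Both PC3 comparisons rest on the same PC3 libraries. SLC16A3, PKM, FBP1 and PDK4 were called higher in PC3 in either, and GPI, ALDOC, ENO3, PDK3, MPC2, PCK2, IDH1 and IDH2 lower. For FBP1, PDK4 and ENO3 the filter, which they passed only through the group where they were high, fixed the direction. RPIA, MPC1, PC, OGDH and TALDO1 were called only against androgen, and HK1, HK2, PFKFB2, PFKM, PDK1 and RPE only against vehicle. Whether a gene's difference from PC3 itself differed between these comparisons is what the androgen comparison tests. In total 23 of the 50 genes tested in at least 1 comparison were called at least once (46%), beside 55.3% of all 12843 genes tested in at least 1. Of the 53 genes, 30 were called in none, of which 3 were not tested. Calls close to the threshold changed when single libraries were left out. The filter of at least 3 libraries stayed, so genes seen only in the reduced group dropped out, and TMM factors were computed anew. HK1 in PC3 against vehicle, for example, ranged from 1.39 to 1.70 on the log2 scale. The part of this in the changed calls was not tested. Against vehicle, HK2 and PKM lost the call without any 1 of the vehicle libraries, PFKFB2 without vehicle replicate 1 or 2, PDK1 without PC3 replicate 1 or 3 or vehicle replicate 2, and PFKM without PC3 replicate 3. Against androgen, MPC1 lost it without any 1 of the PC3 libraries and RPIA without androgen replicate 1 or 3. The adjusted p-values of these genes stayed under 0.05 and only the fold change went below 2. OGDH gained a call against vehicle without vehicle replicate 1 or 2, and against androgen PDK1 gained one without androgen replicate 1 or 3 and MDH1 without PC3 replicate 3.

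Shares of isozymes were computed from counts per kilobase of annotated exons. With 3 libraries against 3, the exact permutation test (two-sided) cannot give a p below 0.10, and over the 21 comparisons made none was below 0.124 after adjustment. HK1 made up 74% ± 1.4 (SD, n = 3) of hexokinase under vehicle, 80.1% ± 1.9 under androgen and 79.7% ± 3.9 in PC3. PFKFB2 made up 37.7% ± 1.7, 66.0% ± 2.4 and 48.9% ± 3.3 of its family, with no overlap between groups. LDHA made up 56.8% ± 2.8 of lactate dehydrogenase under vehicle, 64.8% ± 3.4 under androgen and 73.6% ± 2.1 in PC3, also without overlap. SLC16A3 was 1.84% ± 0.07 of the carrier pair under vehicle, 5.33% ± 0.26 under androgen and 38.2% ± 5.7 in PC3. IDH1 was 52.8% ± 0.21 of the NADP-dependent pair under vehicle and 72% ± 1.5 under androgen, and PC3 (60.1% to 73.3%) overlapped the androgen-treated libraries. PDK3 fell from 18.7% ± 1.3 under vehicle to 10.8% ± 0.69 under androgen and 3.04% ± 0.60 in PC3, but its long annotated exons make this share depend on the length used.

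**Figure D4:**
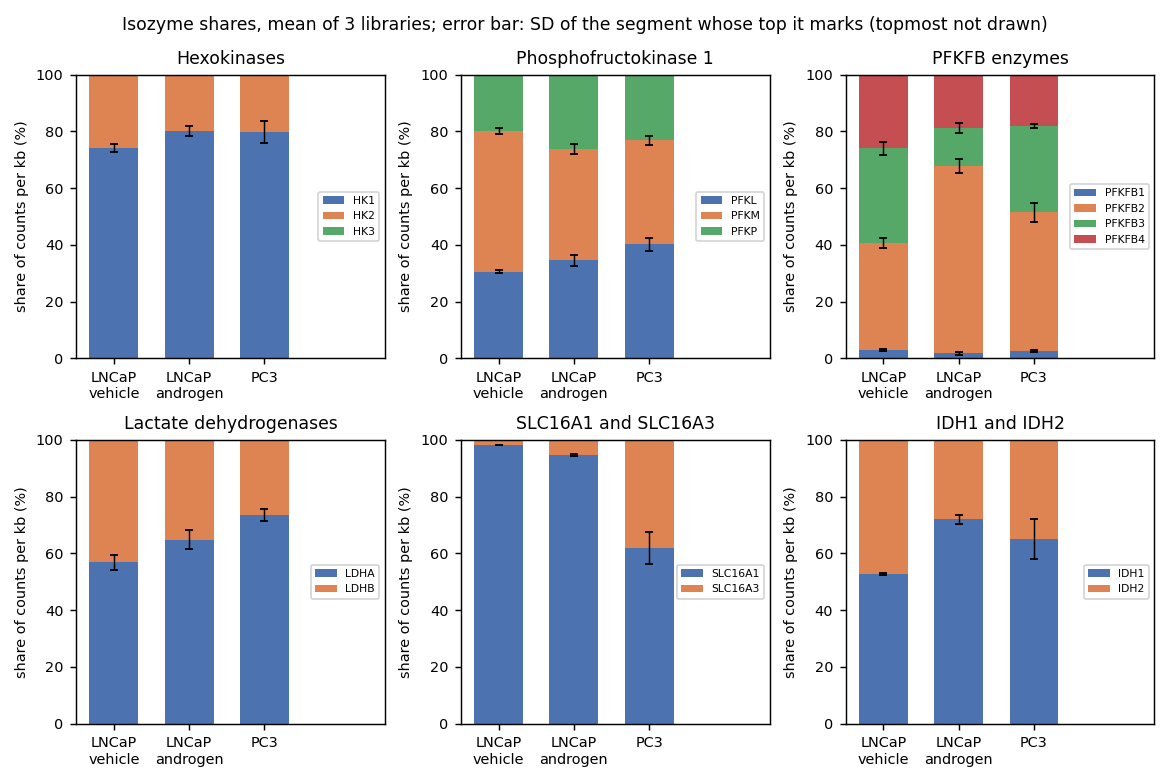
Share of each isozyme in its family, from counts per kb of annotated exons, stacked to 100% for each group (mean of 3 libraries, error bars SD). The PFKFB2 segment is 37.7% under vehicle and 66.0% under androgen, and the SLC16A3 segment is visible mainly in PC3, at 38.2%.

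A list of 50 other genes of these pathways moved on a similar scale. With androgen, 2 of the 37 tested were higher and 1 was lower, beside 6.54% and 7.49% of all genes. Their median log2 fold change was 0.07. LDHD, a mitochondrial D-lactate dehydrogenase, rose by 1.33 ± 0.05 on the log2 scale and PGM2, a phosphopentomutase, by 1.17 ± 0.04. SLC16A7, the monocarboxylate carrier MCT2, was 20.5, 22.4 and 22.9 CPM under vehicle and 3.76, 4.93 and 3.48 CPM under androgen (log2 -2.43 ± 0.12), opposite to SLC16A3. Of 38 tested in each PC3 comparison, 7 were higher and 11 lower against androgen, beside 24% and 22.1% of all genes. Against vehicle 5 were higher and 11 lower, beside 22.2% and 21%. The medians were -0.56 against androgen and -0.34 against vehicle. ME3, a mitochondrial malic enzyme, had 310, 259 and 388 counts in PC3 and at most 1 count in any LNCaP library.

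Since several of the 53 genes are known hypoxia targets, 15 hypoxia-inducible genes outside the pathway were read beside them. With androgen, 4 of 13 tested were higher and 1 was lower (median log2 fold change 0.53), beside 6.54% and 7.49% of all genes. NDRG1 rose by 4.80 ± 0.15, ANKRD37 by 3.26 ± 0.14, LOX by 5.19 ± 0.39 and VEGFA by 1.85 ± 0.12 on the log2 scale. EGLN3 fell by 1.54 ± 0.10. In PC3, 8 of 13 were lower against androgen, beside 22.1% of all genes, and 0 were higher, beside 24%. Against vehicle 3 of 12 were higher and 2 lower, beside 22.2% and 21% of all genes. The part of these genes' changes in those of PGK1, ALDOC or PFKFB4 was not tested.

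Replicates of LNCaP cells differed in the same glycolytic genes whatever the treatment. Of 22 glycolysis and lactate genes with a mean above 3 CPM, 17 were highest in replicate 2 under vehicle and 20 under androgen. The share of all genes highest in that replicate was not counted, so a shift of the whole library cannot be told apart. PDK1, outside that count, deviated from its group mean by 0.23 under vehicle and 0.43 under androgen on the log2 scale in replicate 2, and LDHA by 0.22 and 0.31. The hypoxia-inducible genes outside the pathway did likewise, with 10 of 12 highest in replicate 2 under vehicle and 13 of 13 under androgen. By contrast, 3 of 18 genes of pyruvate entry and the citrate cycle were highest in that replicate under vehicle and 7 under androgen. The number marks no known batch in the labels, and its part in these results was not tested. Without replicate 2 of both groups the same 4 genes were called with androgen.

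PC3 replicates showed another order. There replicate 3 was lowest for 16 of 18 genes of pyruvate entry and the citrate cycle, with a median deviation of -0.17 on the log2 scale. It was also lowest for 11 of 22 glycolysis and lactate genes. The share of all genes lowest in replicate 3 of PC3 was not counted either. FH deviated there by -0.49, IDH2 by -0.49, DLAT by -0.44 and SUCLG1 by -0.42. The hypoxia-inducible genes were highest in the same library for 9 of 11. KLK3 was also counted 20 times in that library, against 2 in each of the others.

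**Figure D5:**
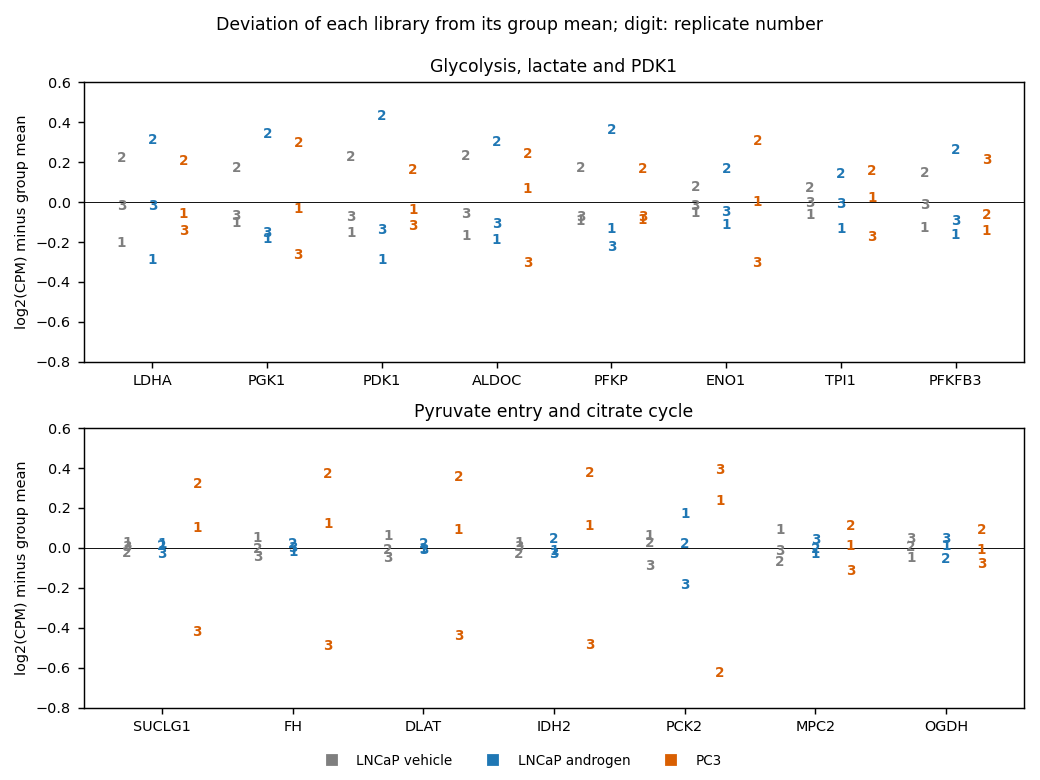
Deviation of log2(CPM) from the group mean for 15 of the genes, with each library drawn as its replicate number in the colour of its group. In the upper panel the digit 2 of both LNCaP groups lies above 0 for all 8 genes, up to 0.43 for PDK1, and in the lower panel the PC3 digit 3 lies lowest for all but PCK2.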

How the data were processed

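Poly(A) RNA of 9 libraries was sequenced as 74-nt single-end reads with molecular identifiers. The authors deposited raw counts per gene and library, made per the labels with cutadapt 4.1, STAR 2.7.7a and UMI-tools 1.1.2 on GRCh38. Each of the 253944 values equals STAR's forward-strand count, and 20.3% to 25.4% of a library's reads were not on a gene. Counts were 17397706 to 25640325 per library. Limits and intervals cover counting error only.

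Genes with more than 3 CPM in at least 3 libraries were tested in edgeR 4.0.16 (R 4.3.3) with TMM factors and the quasi-likelihood test, on the 6 libraries of each comparison, with Benjamini-Hochberg adjustment over all genes tested. SE is the log2 fold change over the root of F. Fits were tested on simulated data. Exon lengths come from GENCODE 44. The members and gene lists were chosen with earlier results of these data known. All 53 genes were accounted for, and those called in any comparison, with the isozymes of their steps, were given with values. Up to 3 genes of other lists were named per comparison, except that all hypoxia-inducible genes called with androgen were named. The subunits PDHX and DLD were named in addition. Cell type markers were named apart from this rule. Genes singled out in the replicate comparison, and the cell type markers named, were chosen after their values were seen.

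Replicate numbers were checked for pairing over 11155 genes. Deviations of same-numbered LNCaP libraries correlated with 0.17, 0.23 and 0.19, all above 0.1, so the numbers pair these libraries, as judged from the counts. For PC3 and either LNCaP group same-numbered correlations were -0.19 to 0.08. The study used a likelihood ratio test with a batch term. Alternatives were the likelihood ratio test in edgeR, a replicate block, size factors or the Wald test from DESeq2 1.42.0, other filters, a test against 2-fold, unstranded counts, all 9 libraries in one fit and leaving out libraries. Leaving out a replicate number of both LNCaP groups, and canonical transcript lengths for isozyme shares, were added after seeing the data.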

Additional observations from a re-analysis of the deposited data

How the results depend on the processing

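No gene past the adjusted p-value without the replicate block changed sign under any alternative run. With androgen, the same 4 genes were called under every alternative, joined by PDK4 without a filter and in a fit of all 9 libraries (5 genes). With the replicate block, which pairs the LNCaP libraries, 4, 17 and 18 genes were called in the 3 comparisons, as without it, and those past the adjusted p-value alone with androgen went from 31 to 38. Taking the adjusted p-value alone gave 31 genes (19 higher, 12 lower) with androgen, 38 (10 and 28) for PC3 against androgen and 41 (15 and 26) against vehicle. At least 10 counts in every library left 3 higher in PC3 than under androgen, because FBP1 and PDK4 were then not tested. A test against 2-fold left 5 higher in PC3 than under vehicle, without HK2, PFKFB2 and PKM, and also dropped PDK1, and against androgen MPC1 and RPIA. Leaving out 1 library gave 4 genes called with androgen in each case, 14 to 17 for PC3 against androgen and 15 to 16 against vehicle. Genes called higher then numbered 3 to 5 against androgen and 5 to 7 against vehicle, lowest without PC3 replicate 2 and without vehicle replicate 1 or 2. Leaving out any PC3 library takes FBP1 and PDK4 out of the test, by the filter. LDHA between LNCaP groups ranged from -0.11 to 0.19 on the log2 scale when a library was left out, negative without androgen replicate 2 (-0.11) or vehicle replicate 1 (-0.06), and was -0.013 without replicate 2 of both groups. Of the genes gained with the block, without it PDK1 ranged from -0.37 to 0.0060 and PFKP from -0.033 to 0.28 when a library was left out, with the sign changed without androgen replicate 1 and 2, respectively. Isozyme shares depended on the length used: PDK3 took 18.6% to 62.5% of its family under vehicle and LDHA 73.6% to 84.9% of its pair in PC3.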
